A study of Mus musculus with 12 samples.

Results

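Transcription factors that establish or maintain the brown adipocyte were followed in brown adipose tissue of mice with and without adipocyte Sel1L, at room temperature and in the cold. The group held 10 genes taken by name: 4 members of the C/EBP family (Cebpa, Cebpb, Cebpd and Cebpg), the zinc finger regulator Prdm16, the early B cell factors Ebf1 and Ebf2, and Zic1, Irf4 and Lhx8. All 10 were measured, among 22180 genes with a probe set carrying exactly 1 gene symbol. Prdm16 and Ebf2 had 2 such probe sets each, and the one with the higher mean over the 12 arrays was used. The other read 1.67 for Prdm16 and 1.43 for Ebf2 on average, below the array medians of 2.03 to 2.09.

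Total RNA of 12 samples of snap-frozen brown adipose tissue, from mice on the C57BL/6J background, was hybridised to whole-transcript expression arrays, with 1 array per sample. Knockouts were adipocyte-specific Sel1L-deficient mice (Sel1LAdipCre), in which Cre recombinase under the Adiponectin promoter deletes a floxed Sel1L gene in adipocytes, while the other cells of the fat pad keep it. Controls were Sel1L f/f littermates, whose genotype is also labelled wildtype. Sel1L works with the ubiquitin ligase Hrd1 in the disposal of misfolded proteins of the endoplasmic reticulum. All mice were fasted for 5 h, either at room temperature (3 controls and 3 knockouts) or at 4 °C (3 controls and 3 knockouts). The labels state no age. The design text speaks of isolated brown adipocytes and the sample labels of brown adipose tissue.

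Values are log2 expression values, so a difference of 1 is a 2-fold difference. Differences were tested with limma over 23521 probe sets, and a gene was called where the Benjamini-Hochberg adjusted p was under 0.05. Sel1l itself was 2.18-fold lower in the knockouts at room temperature (-1.12 ± 0.14 SE, adjusted p = 0.00114, with 3 arrays in each group). In the cold it differed by only -0.19 ± 0.14 (adjusted p = 0.605), so its reading did not check the knockout label there. Between room temperature and 4 °C it rose in the knockouts (0.66 ± 0.14, adjusted p = 0.0124). That call was lost without knockout replicate 3 at room temperature or 1 at 4 °C (up to 0.0603). The control difference (-0.28 ± 0.14, adjusted p = 0.28) and the interaction (0.94 ± 0.20, adjusted p = 0.0862) were not called. Whether this probe set reads RNA outside the deleted part was not tested. Markers of the tissue were bright: Ucp1, the uncoupling protein of brown fat, read 12.38 to 12.83 over all arrays. The mean of 7 brown and general adipocyte markers was 10.88 to 10.92 in warm and 10.74 to 10.83 in cold controls. In the knockouts it was 10.77 to 10.79 and 10.64 to 10.73, below the controls at each temperature. The difference of these means was not tested. The mean of 10 skeletal muscle markers varied most, from 6.56 to 7.47 in warm and 5.07 to 8.12 in cold controls, and from 2.80 to 6.59 in warm and 2.53 to 6.87 in cold knockouts. Control replicate 3 at room temperature has a source name that says 4 °C, against its title and temperature label. It read 8.98 for Cebpa and 8.21 for Ebf2, the highest of the controls at room temperature for both genes. The controls at 4 °C read 5.95 to 6.70 and 6.56 to 6.94. In Irf4 (7.19) and Cebpb (7.90) this array was the warm control nearest to those at 4 °C. The cold controls read 8.94 to 9.39 and 7.98 to 8.97 there. These genes are among the 10 compared below, so their values do not check its label.

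In fat cell formation, C/EBPβ and C/EBPδ act early and switch on C/EBPα and PPARγ, which hold the mature adipocyte state, and C/EBPγ lacks a strong activation domain of its own and pairs with other bZIP factors. EBF2 and PRDM16 direct precursors to the brown rather than the muscle or white fat fate, and ZIC1 and LHX8 are classical marker genes of brown fat. IRF4 is a fasting- and cold-responsive factor of adipocytes that works with the coactivator PGC-1α on thermogenic genes, and it also has well-known roles in lymphocytes.

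Several of these genes differed between temperatures. In the controls, 6 of the 10 genes were called between 4 °C and room temperature, against 11.1% of all probe sets: Irf4, Cebpd and Cebpb rose (4.85% of all probe sets rose) and Cebpa, Ebf2 and Zic1 fell (6.23% fell). In the knockouts 5 of 10 were called, against 9.03% of all probe sets. Irf4 and Cebpd rose there too (4.32% of all probe sets rose) and Cebpa, Ebf2 and Zic1 fell (4.7% fell). The median size of the difference over the 10 genes, regardless of sign, was 0.87 in the controls and 0.70 in the knockouts, against 0.15 and 0.15 over all probe sets. The values at 4 °C and room temperature did not overlap for 9 of the 10 genes in the controls and for 7 in the knockouts, against 25.9% and 25.8% of all probe sets. All probe sets were taken without a brightness filter, and their array medians were 2.24 to 2.31, while the 10 genes averaged 3.54 to 7.97. How far this difference in brightness enters the contrasts was not tested. The 10 genes were chosen with earlier results of these data known. These contrasts with all probe sets therefore describe the chosen genes and are not an independent test of them. With the array of conflicting label moved to the controls at 4 °C, 0 of the 10 were called in the controls and 2 in the knockouts (Irf4 and Cebpd). In bulk tissue, fewer cells of a type and less RNA per cell cannot be told apart.

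**Figure D1:**
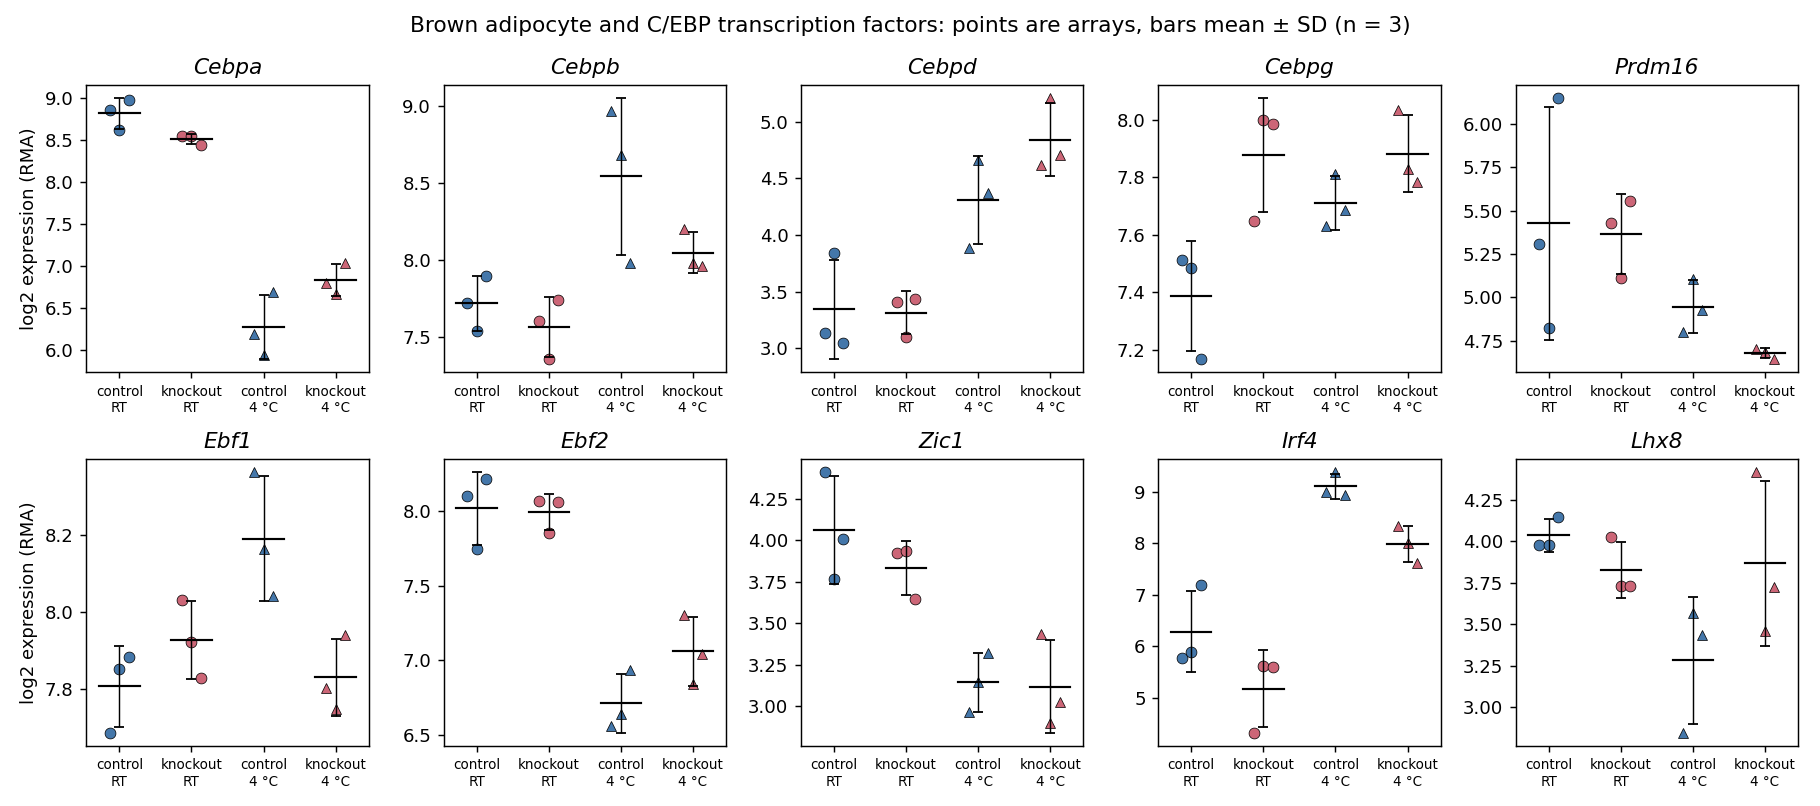
Log2 expression of the 10 genes in every array, by group on the horizontal axis (RT is room temperature). Points are single arrays, blue for controls and red for knockouts, and bars give the mean and SD of 3 arrays; each panel has its own vertical scale, which does not start at 0. Irf4 spans 4.32 to 9.39 and Cebpa 5.95 to 8.98, with the arrays at 4 °C and at room temperature apart.

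Irf4 showed the widest range of the 10 genes. In the controls it read 5.77, 5.89 and 7.19 at room temperature and 8.997, 9.39 and 8.94 at 4 °C. In the knockouts it read 4.32, 5.62 and 5.601 at room temperature and 8.33, 8.003 and 7.62 at 4 °C. The order was knockouts at room temperature, controls at room temperature, knockouts at 4 °C and controls at 4 °C, and no array of one group crossed into the next. Irf4 rose 7.08-fold in the controls (2.82 ± 0.39 SE, n = 3 per group, adjusted p = 0.000838) and 6.99-fold in the knockouts (2.80 ± 0.39, adjusted p = 0.000904). The difference between both responses was -0.02, with a 95% interval of -1.21 to 1.18 (adjusted p = 0.997), so a moderate difference in either direction was within the error. Because Irf4 is also a lymphocyte gene, markers of T and B cells were set beside it. The mean of the 9 measured markers stayed between 2.28 and 2.66 over the 12 arrays, and single markers differed widely in level. Ighm, the immunoglobulin heavy chain gene of B cells, read 4.23 to 6.82, with group means of 5.72 and 5.22 in warm and cold controls and 5.16 and 5.99 in warm and cold knockouts. The T cell genes Cd3e and Cd3g read at most 3.15 and 3.50 and the B cell genes Cd79b, Pax5, Cd79a and Ms4a1 at most 2.33, 1.96, 1.90 and 1.61. Of these 9 markers, 0 were called by limma in the 5 comparisons, and their part in the Irf4 values was not tested. Macrophage markers averaged 5.28 to 5.98 in controls kept at room temperature and 5.26 to 6.21 at 4 °C, and 5.52 to 5.74 and 5.66 to 5.88 in the knockouts. Of the 9 measured, limma called 1 higher in the cold in each genotype, against 4.85% and 4.32% of all probe sets. These were Itgam in the controls (group means 3.75 and 4.61) and Mrc1 in the knockouts (5.98 and 6.58). The part of macrophages in the Irf4 values was not tested.

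Cebpa, the gene of the factor that maintains mature adipocytes, had the largest fall. It read 8.87, 8.62 and 8.98 in controls kept at room temperature and 6.19, 5.95 and 6.70 at 4 °C, a 5.83-fold fall (-2.54 ± 0.17, adjusted p = 1.02e-05). In the knockouts it read 8.55, 8.55 and 8.44 at room temperature and 6.80, 6.67 and 7.05 at 4 °C, a 3.19-fold fall (-1.67 ± 0.17, adjusted p = 0.00016). Cold and room temperature were separated by more than 1 log2 unit in both genotypes. The knockouts differed from the controls by -0.31 ± 0.17 at room temperature and by 0.56 ± 0.17 at 4 °C, neither of them called. The fall was smaller by 0.87 ± 0.25 in the knockouts (95% interval 0.33 to 1.41), but this difference was not called (adjusted p = 0.208). It passed the test without control replicate 3 at 4 °C (1.08, adjusted p = 0.041), the array with the highest muscle marker mean, 8.12. A fit with the muscle marker mean as a covariate gave 0.79 (adjusted p = 0.325), and moving the array of conflicting label to the cold controls gave 0.12 (adjusted p = 0.991).

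The early C/EBP factors moved the other way. Cebpd read 3.13, 3.84 and 3.05 in controls kept at room temperature and 3.89, 4.66 and 4.37 at 4 °C, and 3.41, 3.10 and 3.44 against 4.61, 5.21 and 4.70 in the knockouts. It rose 1.95-fold in the controls (0.96 ± 0.24, adjusted p = 0.0224) and 2.88-fold in the knockouts (1.53 ± 0.24, adjusted p = 0.00192). The room temperature readings of Cebpd, 3.05 to 3.84, lay not far above the array medians, and RMA compresses differences near background. Cebpb read 7.72, 7.53 and 7.90 in controls kept at room temperature and 8.97, 8.68 and 7.98 at 4 °C, where the third array lay only just above the warm ones. It rose 1.77-fold (0.82 ± 0.21, adjusted p = 0.0244). In the knockouts it read 7.60, 7.35 and 7.74 at room temperature and 8.20, 7.98 and 7.96 at 4 °C, again without overlap, but the difference of 0.48 ± 0.21 was not called (adjusted p = 0.211). Both calls in the controls were lost over all probe sets (Cebpb adjusted p = 0.0582 and Cebpd 0.0559). They were lost also with only the groups compared (0.0859 and 0.0649). That of Cebpb was lost without controls 1 or 2 at either temperature (adjusted p up to 0.0986), and that of Cebpd without control replicates 1 or 3 at room temperature or 2 or 3 at 4 °C (up to 0.0987). Neither interaction was called (Cebpb -0.34 ± 0.30, adjusted p = 0.782, and Cebpd 0.56 ± 0.34, adjusted p = 0.654).

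Cebpg, the short family member, had the smallest cold response of the C/EBP genes. It read 7.51, 7.49 and 7.17 in controls kept at room temperature and 7.63, 7.81 and 7.69 at 4 °C, a difference of 0.32 ± 0.13 that was not called (adjusted p = 0.166). In the knockouts the values of 7.65, 7.999 and 7.99 at room temperature and 8.03, 7.83 and 7.78 at 4 °C overlapped and differed by 0.00, with a 95% interval of -0.29 to 0.30. The C/EBP family thus held a large fall of Cebpa, smaller rises of Cebpb and Cebpd, and no called cold response of Cebpg. The rise of Cebpb was called in the controls only.

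Among the factors that mark brown identity, Ebf2 and Zic1 fell in the cold in both genotypes. Ebf2 read 8.10, 7.75 and 8.21 in controls kept at room temperature and 6.56, 6.64 and 6.94 at 4 °C, and 8.07, 7.85 and 8.06 against 7.30, 6.84 and 7.04 in the knockouts. It fell 2.47-fold in the controls (-1.31 ± 0.16, adjusted p = 0.000348) and 1.91-fold in the knockouts (-0.93 ± 0.16, adjusted p = 0.00289). Every array at 4 °C lay below every array at room temperature, and the interaction of 0.37 ± 0.22 was not called (adjusted p = 0.646). Zic1 read 4.41, 3.77 and 4.01 in controls kept at room temperature and 2.97, 3.14 and 3.32 at 4 °C, and 3.93, 3.93 and 3.65 against 3.43, 2.90 and 3.02 in the knockouts. It fell 1.89-fold in the controls (-0.92 ± 0.18, adjusted p = 0.00604) and 1.64-fold in the knockouts (-0.72 ± 0.18, adjusted p = 0.0271). The second call was lost without knockout replicates 1 or 2 at room temperature or 2 or 3 at 4 °C (adjusted p up to 0.117), and over all probe sets (0.0622). Its readings of 2.90 to 4.41 lay not far above the array medians.

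Prdm16, Ebf1 and Lhx8 had no called cold response. Prdm16 read 5.31, 4.82 and 6.15 in controls kept at room temperature and 4.80, 5.11 and 4.93 at 4 °C, with overlap (-0.48 ± 0.25, adjusted p = 0.288). In the knockouts it read 5.43, 5.11 and 5.56 against 4.70, 4.69 and 4.64, without overlap (-0.69 ± 0.25, adjusted p = 0.125). The high array among the controls was replicate 3, the one with the conflicting label, and without it the same knockout difference passed the test (adjusted p = 0.0168). It passed also without control replicate 2 at room temperature (0.0475), as did that of the controls (-0.78, adjusted p = 0.0471), and with only the knockouts fitted (0.0168).

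Ebf1, the paralog of Ebf2, did not share its fall. It read 7.69, 7.85 and 7.88 in controls kept at room temperature and 8.36, 8.16 and 8.04 at 4 °C, higher in each cold array (0.38 ± 0.11, adjusted p = 0.0515). In the knockouts it read 8.03, 7.92 and 7.83 against 7.80, 7.75 and 7.94 (-0.10 ± 0.11, adjusted p = 0.735). The difference between both responses, -0.48 ± 0.16, had an interval of -0.83 to -0.13 and was not called (adjusted p = 0.32). Ebf1 is also strong in mural cells of vessels and in fibroblasts. The mean of 7 mural markers lay between 6.28 and 6.60 in controls kept at room temperature and between 5.86 and 6.31 at 4 °C, and that of 8 fibroblast and preadipocyte markers between 5.98 and 6.64 and between 6.29 and 6.33. In the knockouts these ranges were 6.14 to 6.53 and 5.76 to 5.94, and 6.00 to 6.65 and 6.16 to 6.28. Limma called the mural genes Cspg4 and Notch3 lower in the cold in the controls (6.23% of all probe sets were lower). In the knockouts it called Cspg4 lower (4.7% of all). The part of these cells in the Ebf1 values was not tested. Lhx8 read 3.98, 3.98 and 4.15 in controls kept at room temperature and 2.85, 3.57 and 3.43 at 4 °C (-0.75 ± 0.23, adjusted p = 0.0562), and 4.02, 3.73 and 3.73 against 4.42, 3.46 and 3.72 in the knockouts (0.04 ± 0.23, adjusted p = 0.961). The control difference of Ebf1 passed the test without control replicate 3 at 4 °C (adjusted p = 0.0331) and in 5 of 11 other settings (lowest 0.0296, with dim probe sets left out). That of Lhx8 passed without knockout replicates 1 (0.0199) or 2 (0.0426) at 4 °C and in 2 of 11 other settings (0.0296 with dim probe sets left out and 0.0481 with array weights).

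**Figure D2:**
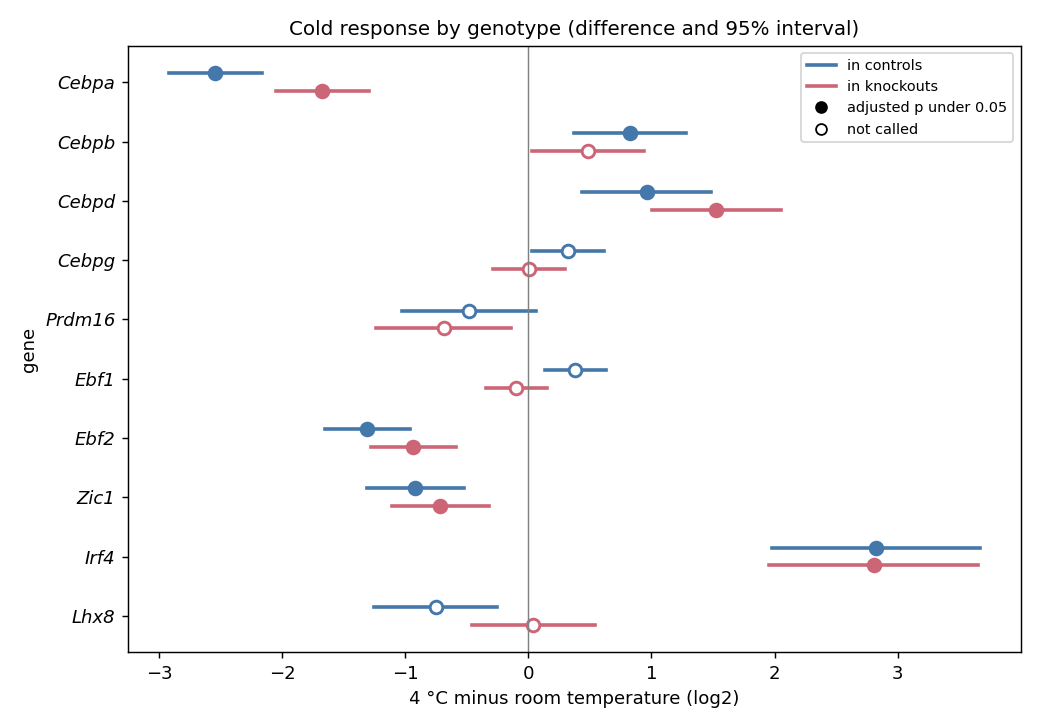
Difference between 4 °C and room temperature (horizontal axis, log2) for each gene, in controls (blue) and knockouts (red), with 95% intervals; filled points were called. Irf4 lies at 2.82 and 2.80 and Cebpa at -2.54 and -1.67, and the intervals of Ebf1 and Lhx8 include 0 in the knockouts.

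The upstream sequences of the called genes are shown because 4 genes that rose or fell with cold can be read side by side there. Promoters of 8 of the 10 genes were found in the RefSeq table (GRCm38.p6); Cebpd and Ebf2 were not in it. Each line gives the 250 bases before the annotated start, 5′ to 3′ on the strand of the gene. Capitals mark 4 short motifs on either strand, and the marked matches do not overlap each other. The core of the cAMP response element reads TGACG. The box bound by NF-Y, from which the C/EBP family also has its name, reads CCAAT. The E-box reads CACGTG, and the TATA box reads TATAAA.
Irf4 (chr13:30748983-30749232, plus strand): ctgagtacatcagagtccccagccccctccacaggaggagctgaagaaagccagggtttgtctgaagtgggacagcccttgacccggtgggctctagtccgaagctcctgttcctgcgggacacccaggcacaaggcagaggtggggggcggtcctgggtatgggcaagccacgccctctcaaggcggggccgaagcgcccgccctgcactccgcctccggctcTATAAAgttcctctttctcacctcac
Cebpb (chr2:167688665-167688914, plus strand): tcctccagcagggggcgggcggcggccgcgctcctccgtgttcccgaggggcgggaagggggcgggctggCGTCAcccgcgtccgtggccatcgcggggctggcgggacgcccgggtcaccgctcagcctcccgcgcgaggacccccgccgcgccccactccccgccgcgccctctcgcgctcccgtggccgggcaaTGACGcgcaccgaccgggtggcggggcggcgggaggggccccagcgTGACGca
Cebpa (chr7:35119043-35119292, plus strand): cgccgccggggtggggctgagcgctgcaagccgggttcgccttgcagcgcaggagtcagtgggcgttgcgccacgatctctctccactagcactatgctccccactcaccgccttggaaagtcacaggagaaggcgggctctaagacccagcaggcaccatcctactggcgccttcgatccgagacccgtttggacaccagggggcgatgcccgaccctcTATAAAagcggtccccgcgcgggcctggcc
Zic1 (chr9:91365769-91366018, minus strand): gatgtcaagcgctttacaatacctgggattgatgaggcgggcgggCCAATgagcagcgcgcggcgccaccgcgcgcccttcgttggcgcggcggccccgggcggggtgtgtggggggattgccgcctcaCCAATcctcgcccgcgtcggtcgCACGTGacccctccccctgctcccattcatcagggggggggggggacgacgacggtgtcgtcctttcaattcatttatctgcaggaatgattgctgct

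Irf4 and Cebpa, the genes with the largest rise and the largest fall, each held TATAAA shortly before the start, at bases 26 to 21 and 30 to 25. TATAAA was found in 2 of the 8 genes and in 12.4% of 32851 promoter windows of this length. Cebpb held TGACG 3 times, at bases 180 to 176 (as CGTCA), 53 to 49 and 7 to 3 before the start, and was the only 1 of the 8 genes with it; 17.8% of all windows hold it. The full cAMP response element TGACGTCA was in 0 of the 8 and in 1.55% of all windows. Zic1 held CCAAT at bases 205 to 201 and 121 to 117 and the E-box at 98 to 93. CCAAT was in 3 of the 8 genes (Zic1, Cebpg and Prdm16) and 33.8% of all windows, and CACGTG in 1 of the 8 and 6.02%. The composite element of C/EBP with ATF factors, TGATGNAAT, was in 0 of the 8 genes and 0.816% of all windows. The C/EBP site TTGCNNAA was in 0 of the 8 and 9.56%. These are letter matches in a short window, and binding was not measured.

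Across the 12 arrays, Cebpa and Ebf2 ran nearly in parallel, with a Pearson r of 0.97, and Zic1 followed both (0.89 and 0.91). Irf4 ran opposite to Cebpa (r = -0.88) and Ebf2 (-0.86). These coefficients describe 12 arrays that share 4 groups, and that differ between both temperatures. Ranked by r among 6047 other genes with a mean of at least 5, the gene most like Cebpa was Dcaf8 (r = 0.98), followed by Ebf2 and Mgat4b (0.97). Those most like Ebf2 were Cebpa, Uck1 (0.97) and Efna5 (0.96). Irf4 was most like Lifr, a cytokine receptor gene (0.96), Tiparp (0.96) and Ube2q2 (0.95). Cebpb was most like Aifm2, the endothelial gene Pecam1 and Cct3 (each 0.96), Cebpd like Mir692-1 (0.97), Pum3 (0.96) and Noc2l (0.95), and Zic1 like Gtpbp8 (0.95), Cygb (0.95) and Plcg1 (0.93). Pecam1 rose in the cold with Cebpb, from 7.95 ± 0.22 to 8.64 ± 0.25 in the controls (SD, n = 3). The mean of 8 endothelial markers was 6.73 to 7.16 in warm and 6.80 to 7.15 in cold controls, but single markers moved apart. In the controls limma called Pecam1 and Cldn5 (5.54 to 7.43) higher in the cold, against 4.85% of all probe sets. Tek (6.91 to 6.00) and Emcn (7.01 to 5.95) were called lower, against 6.23%. The part of endothelial RNA in the Cebpb values was not tested.

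**Figure D3:**
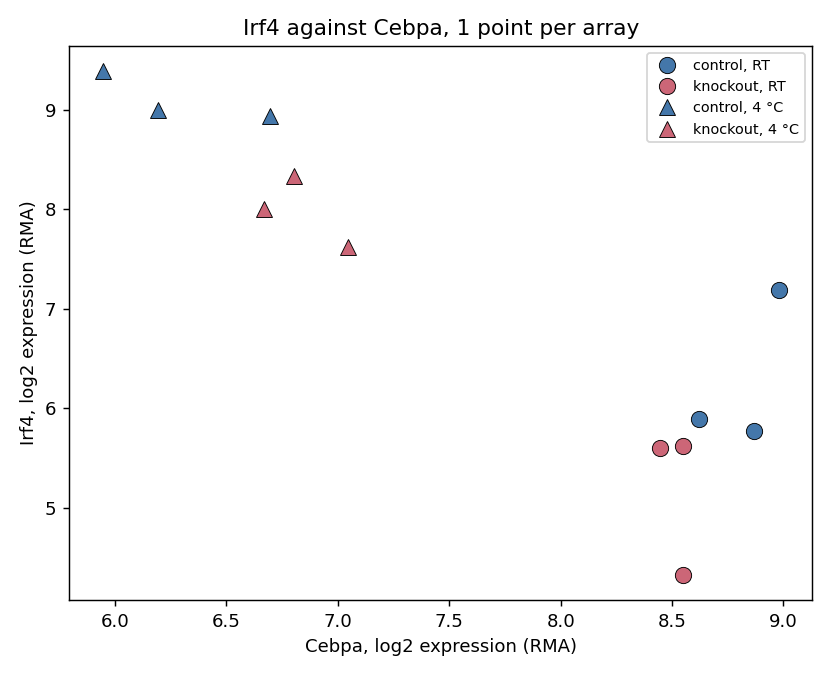
Irf4 (vertical axis) against Cebpa (horizontal axis), both as log2 expression, 1 point per array; circles are room temperature, triangles 4 °C, blue controls and red knockouts. The arrays at 4 °C lie at high Irf4 and low Cebpa, and at both temperatures the knockouts lie below the controls in Irf4.

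Fewer of these genes were called between genotypes than between temperatures. At room temperature limma called 0 of the 10 genes between knockouts and controls, against 1.72% of all probe sets, and 2 had an unadjusted p under 0.05 (13% of all probe sets). At 4 °C it called 0 of 10, against 5.8%, and 7 had an unadjusted p under 0.05 (16.9% of all). The values of both genotypes did not overlap for 3 genes at each temperature, against 17.4% and 21.8% of all probe sets. Of the differences between both cold responses, 0 of 10 were called (0.306% of all probe sets) and 3 had an unadjusted p under 0.05 (9.77% of all).

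Irf4 was the only 1 of the 10 genes whose knockout arrays lay below all control arrays at both temperatures. The difference was -1.10 ± 0.39 at room temperature (2.15-fold, 95% interval -1.95 to -0.26, adjusted p = 0.219) and -1.12 ± 0.39 at 4 °C (2.17-fold, -1.97 to -0.27, adjusted p = 0.138), neither of them called. At room temperature it shrank to -0.65 without control replicate 3, and at 4 °C it passed the test when only those 6 arrays were fitted (adjusted p = 0.0181). Averaged over both temperatures, a comparison added after these values were seen, Irf4 was 2.16-fold lower in the knockouts (-1.11 ± 0.28, interval -1.71 to -0.51, adjusted p = 0.0284). In that comparison 1 of the 10 genes was called, against 6.96% of all probe sets (2.73% lower in the knockouts). The call was lost without control replicates 1 (adjusted p = 0.0533) or 2 (0.0639) or knockout replicates 2 (0.0607) or 3 (0.0767) at 4 °C, while the value stayed between -1.24 and -0.89 over all 12 arrays left out in turn. It was also lost over all probe sets (0.0675), with a trended and robust variance prior (0.0561) and with the array of conflicting label moved (-0.65, adjusted p = 0.41). With the muscle marker mean as a covariate it was -1.42 (adjusted p = 0.0191).

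Cebpg leaned the other way at room temperature, where the knockouts read 7.65, 7.999 and 7.99 and the controls 7.51, 7.49 and 7.17. All 3 knockout values lay above the controls, but the difference of 0.49 ± 0.13 (1.4-fold, interval 0.20 to 0.78) was not called (adjusted p = 0.102). At 4 °C it was 0.17 ± 0.13 (adjusted p = 0.607). Averaged over both temperatures it was 0.33 ± 0.09 (adjusted p = 0.0573), and it passed the test without knockout replicate 1 at room temperature (0.0272), with dim probe sets left out (0.0309), with a trended and robust variance prior (0.0413) and with array weights (0.0489). With the muscle marker mean as a covariate this average was 0.21 (adjusted p = 0.344).

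At 4 °C, Cebpa was 1.47-fold higher in the knockouts (0.56 ± 0.17, interval 0.18 to 0.94, adjusted p = 0.0915), with the control array at 6.70 just above the knockout array at 6.67. At room temperature it stood -0.31 ± 0.17 below the controls (adjusted p = 0.507), without overlap. Cebpb differed by -0.49 ± 0.21 at 4 °C (adjusted p = 0.246). Both genes were called at 4 °C without control replicate 3 (Cebpa 0.77, adjusted p = 0.00978, and Cebpb -0.78, adjusted p = 0.0133). Cebpa was called also with that array kept and dim probe sets left out (0.56, adjusted p = 0.0475). With the array of conflicting label moved to the cold controls, the difference of Cebpa turned to -0.11 (adjusted p = 0.955). Control replicate 3 at 4 °C read nearest to the knockouts of the 3 controls in Cebpa and Cebpb, and its muscle marker mean of 8.12 was the highest of all arrays.

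The remaining genotype differences were small or wide in error. Ebf1 was -0.36 ± 0.11 lower in the knockouts at 4 °C, without overlap (adjusted p = 0.102), and 0.12 ± 0.11 at room temperature. Prdm16 did not overlap at 4 °C either (-0.27 ± 0.25, adjusted p = 0.693). At 4 °C Cebpd differed by 0.54 ± 0.24 (adjusted p = 0.283), Ebf2 by 0.35 ± 0.16 (0.285), Lhx8 by 0.58 ± 0.23 (0.202) and Zic1 by -0.02 ± 0.18 (0.972). At room temperature the differences of Cebpb, Cebpd, Prdm16, Ebf2, Zic1 and Lhx8 lay between -0.23 and -0.03, with adjusted p from 0.68 to 0.982. Their 95% intervals reached from -0.71 to 0.50, and differences of that size were within the error.

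**Figure D4:**
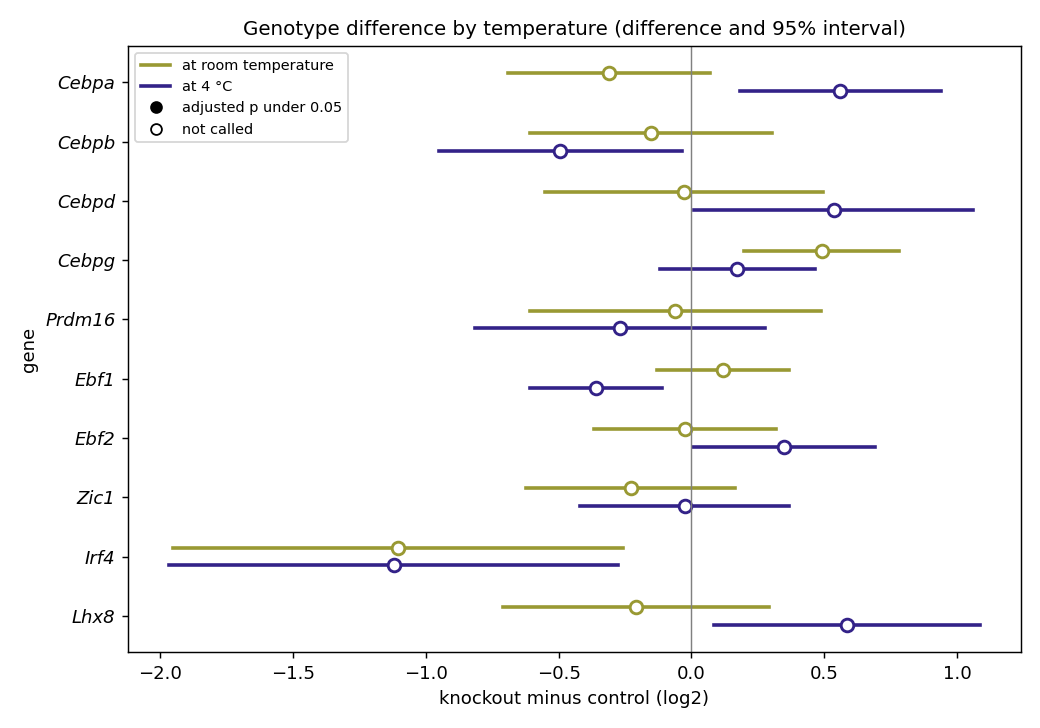
Difference between knockouts and controls (horizontal axis, log2) for each gene at room temperature (olive) and at 4 °C (dark blue), with 95% intervals; open points were not called. Irf4 lies at -1.10 and -1.12, and no gene was called at either temperature.

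Among relatives and partners of the C/EBP factors, a pair of genes was called between genotypes at both temperatures. Of 16 measured bZIP genes, 2 rose in the knockouts at room temperature and 0 fell (median -0.21, against -0.01 over all probe sets, of which 1.72% were called). These were Ddit3, which encodes the C/EBP relative CHOP (1.22 ± 0.14, adjusted p = 0.000555), and Atf5 (1.63 ± 0.11, adjusted p = 5.65e-06). At 4 °C Ddit3 (1.36 ± 0.14) and Atf5 (0.47 ± 0.11, adjusted p = 0.0241) rose and Atf3 (-1.36 ± 0.28, adjusted p = 0.0126) and Tef (-0.65 ± 0.15, 0.0272) fell, with a median of -0.19 against -0.01 and 5.8% of all probe sets called. The calls of Atf5, Atf3 and Tef at 4 °C were lost without any of 4, 3 and 5 single arrays, with adjusted p reaching 0.0969, 0.0633 and 0.114. That of Atf5 was lost also with only the groups compared (0.067), that of Tef over all probe sets (0.0574) and with the mean of its probe sets (0.219), and those of Atf5 and Atf3 with the array of conflicting label moved (0.135 and 0.892). Cebpe, the myeloid C/EBP gene, was not called in any comparison, with differences of -0.31 to 0.32.

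In the cold, 8 of these 16 genes rose and 2 fell in the controls (median 0.36, against -0.01, with 4.85% of all probe sets higher and 6.23% lower). Atf3, a stress-induced factor, rose 13.3-fold (3.73 ± 0.28, adjusted p = 2.36e-05), Atf4, the main factor of the integrated stress response, 3.05-fold (1.61 ± 0.19), Atf5 2.32-fold (1.21 ± 0.11) and Fos 4.63-fold (2.21 ± 0.40). The warm control readings of Atf3, 3.14 to 3.67, lay not far above the array medians. Tef (-0.90 ± 0.15) and Hlf (-0.88 ± 0.18), factors of the circadian output, fell. In the knockouts 5 rose and 2 fell (median 0.24, against -0.01, with 4.32% higher and 4.7% lower), with Jun (1.65 ± 0.23), Fos (2.52 ± 0.40), Nfil3 (2.10 ± 0.38) and Atf4 (0.92 ± 0.19) up, and Tef (-0.91 ± 0.15) and Hlf (-0.67 ± 0.18) down. The fall of Hlf there was lost without any of 7 arrays (adjusted p up to 0.139).

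Among paralogs of the other factors, Ebf3 fell in the cold in both genotypes. Of 16 measured paralogs of the EBF, ZIC, IRF and PRDM genes, 0 rose and 1 fell in the cold in the controls (median -0.14), namely Ebf3 (-0.71 ± 0.12, adjusted p = 0.00308). With 11.1% of all probe sets called there and 6.23% lower, this count is near the background. In the knockouts 0 rose and 4 fell (median -0.15), against 4.7% of all probe sets lower: Ebf3 (-1.01 ± 0.12), Irf1 (-1.25 ± 0.15, adjusted p = 0.00036), Irf3 (-0.71 ± 0.15) and Irf7 (-1.01 ± 0.28, adjusted p = 0.0408). The call of Irf3 was lost without knockout replicate 3 at room temperature or 2 at 4 °C (adjusted p up to 0.0512), and that of Irf7 without any of 8 arrays (up to 0.155). Between genotypes 0 were called at room temperature, against 1.72% of all probe sets. At 4 °C only Ebf3 fell (-0.48 ± 0.12, adjusted p = 0.0407), a call lost without any of 9 arrays (adjusted p up to 0.162). With 5.8% of all probe sets called at 4 °C, this count is near the background.

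Of 25 other regulators of brown or white adipocytes, 3 rose and 4 fell in the cold in the controls (median 0.02), against 4.85% of all probe sets higher and 6.23% lower. Ppargc1a, the gene of PGC-1α, rose 10.6-fold (3.41 ± 0.25, adjusted p = 2.09e-05), Med1 of the Mediator complex 1.64-fold and Klf15 2.41-fold. Zfp423, a factor of white adipocyte identity (-1.12 ± 0.15, adjusted p = 0.000606), and Ctbp1 (-0.50 ± 0.10), Ctbp2 (-0.42 ± 0.10) and Rxra (-0.48 ± 0.14) fell. In the knockouts Ppargc1a (1.85 ± 0.25) and Klf15 (1.49 ± 0.32) rose, against 4.32% of all probe sets higher. Zfp423 (-0.85 ± 0.15) and Ehmt1 (-0.54 ± 0.15), the methyltransferase partner of PRDM16, fell there, against 4.7% lower (median of the 25 genes -0.06). At room temperature 0 of the 25 were called between genotypes (median -0.08), against 1.72% of all probe sets. At 4 °C 4 fell (median -0.15, with 5.8% of all probe sets called in either direction): Ppargc1a (-1.42 ± 0.25, adjusted p = 0.00473), Pparg (-0.78 ± 0.16, 0.0144), Ehmt1 (-0.60 ± 0.15, 0.0302) and Nfia (-0.47 ± 0.11, 0.0303). The calls of Pparg, Ehmt1 and Nfia at 4 °C were lost without any of 3, 4 and 5 arrays, with adjusted p reaching 0.0689, 0.129 and 0.112. That of Ppargc1a was lost with the array of conflicting label moved to the cold controls (-0.65, adjusted p = 0.709). Its cold calls were lost in that setting too (adjusted p = 0.131 in the controls and 0.159 in the knockouts). In the cold response of the controls, Ctbp2 lost its call without control replicate 3 at room temperature (0.061), and Klf15 and Rxra theirs without any of 5 and 9 arrays (0.0889 and 0.167). In that of the knockouts Ehmt1 lost its call without any of 6 (0.16).

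**Figure D5:**
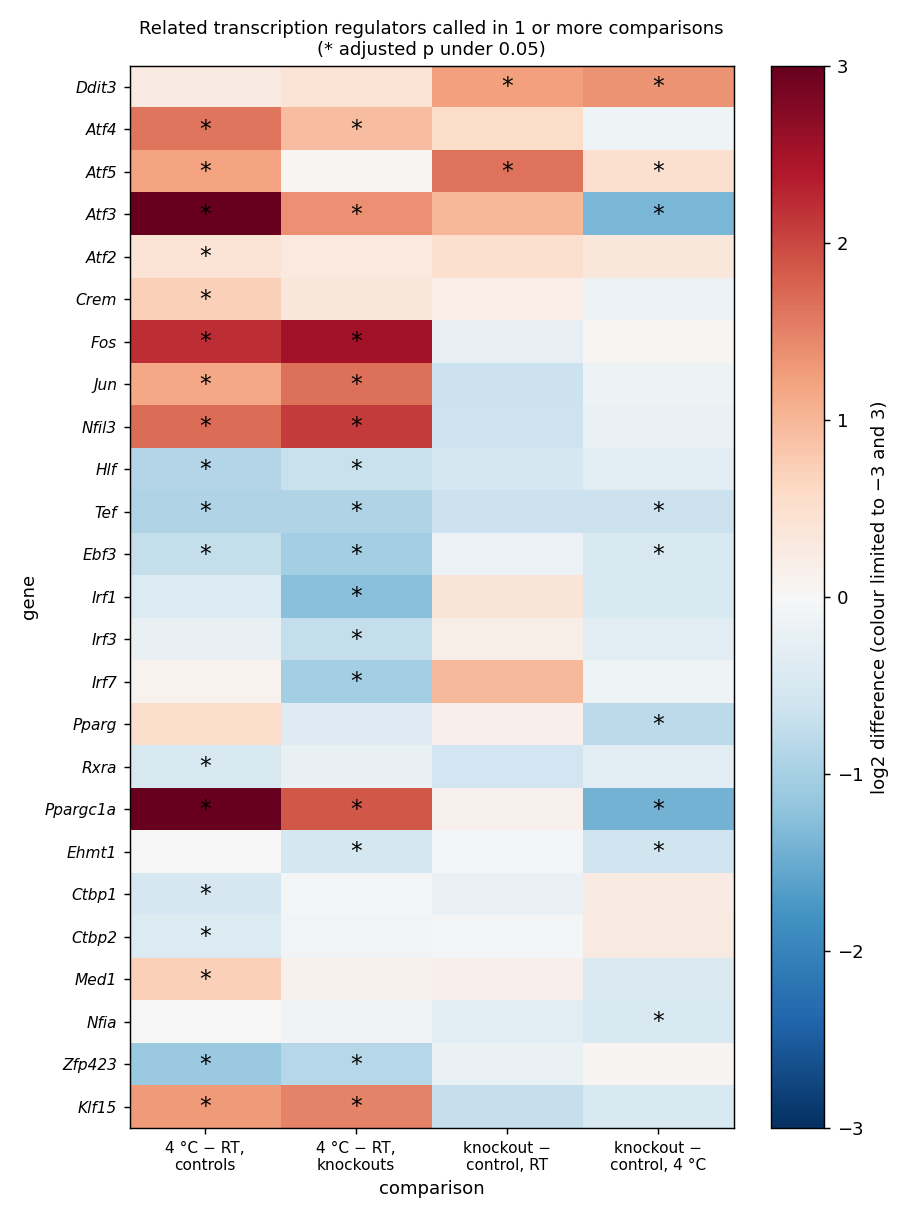
Heat map of the 25 related regulators, of 57 measured, that were called in at least 1 of 4 comparisons (columns); colour is the log2 difference, limited to -3 and 3, and stars mark calls. Ppargc1a rose by 3.41 in the controls and 1.85 in the knockouts, and Ddit3 and Atf5 were called in both genotype comparisons.

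Listed brown adipocyte genes were called in both directions in the cold, and listed adipocyte genes only downward. Whether these factors act on them here was not tested. Of 15 measured brown adipocyte genes, 3 rose and 2 fell in the controls (median 0.02, with 4.85% of all probe sets higher and 6.23% lower), among them the deiodinase gene Dio2 (2.72 ± 0.35), the elongase gene Elovl3 (1.83 ± 0.22) and Pank1 (0.67 ± 0.13) upward and Mpzl2 (-0.88 ± 0.13) and Ntrk3 (-0.85 ± 0.23) downward. In the knockouts Dio2 (2.03 ± 0.35) and Pank1 (0.47 ± 0.13) rose and Plin5 (-1.26 ± 0.20), Mpzl2 (-0.89 ± 0.13) and Otop1 (-0.51 ± 0.14) fell (median -0.12, with 4.32% of all probe sets higher and 4.7% lower). Of 15 adipocyte genes that include targets of C/EBPα, 0 rose and 3 fell in each genotype (medians -0.11 and -0.35), against 6.23% and 4.7% of all probe sets lower. Lipe, the hormone-sensitive lipase gene (-0.53 ± 0.11 in controls and -0.67 ± 0.11 in knockouts), and Pck1 (-0.53 ± 0.11 and -0.43 ± 0.11) fell in both, Cidec (-0.43 ± 0.11) in the controls and Agpat2 (-1.19 ± 0.25) in the knockouts. Single arrays decided several of these calls: that of Ntrk3 was lost without any of 4 arrays, those of Cidec, and of Otop1, Pank1 and Pck1 in the knockouts, without any of 5 each (adjusted p up to 0.132), and that of Agpat2 without knockout replicate 1 at 4 °C (0.0505).

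Between genotypes 0 of both lists were called at room temperature (medians 0.02 and -0.05), against 1.72% of all probe sets. At 4 °C 5 of the 15 brown adipocyte genes fell (median -0.19, with 5.8% of all probe sets called in either direction): Plin5 (-0.86 ± 0.20), Otop1 (-0.59 ± 0.14), Acsl5 (-1.62 ± 0.38), Pank1 (-0.52 ± 0.13) and Slc27a2 (-0.35 ± 0.09). The calls of Plin5, Otop1, Acsl5 and Pank1 were lost without any of 3, 5, 5 and 5 arrays, with adjusted p reaching 0.0939, 0.0773, 0.105 and 0.128. That of Slc27a2, which is named after its values were seen, was lost without any 1 of the 12 (up to 0.156). Of the 15 adipocyte genes, only Retn, the resistin gene, fell (-1.42 ± 0.28, adjusted p = 0.0103, and 0.0532 without knockout replicate 2 at 4 °C), with a median of -0.13. With 5.8% of all probe sets called there, this count is near the background. With the muscle marker mean as a covariate, 0 of the 11 cold calls of the 10 factors and 7 of the 68 calls of the listed genes were lost.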

How the data were processed

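The deposited table holds log2 expression values of 41345 probe sets on 12 arrays, made by the authors with RMA, per the submitters' processing notes; the version and the genome build are not given in the sources used here. RMA corrects background, quantile-normalizes and summarises probes, and compresses differences near background and saturation. Scanner intensities were not used here. Columns were matched to samples by identifier (0 unmapped), and groups came from sample titles. Genes were named from the platform annotation; all 10 members matched RefSeq identifiers.

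With limma 3.58.1 in R 4.3.3 a linear model estimated the 4 group means for 23521 single-symbol probe sets over the 12 arrays (8 residual and 4.45 prior degrees of freedom), without a brightness filter; the script was tested on simulated data. How animals were picked is not stated, and p-values reflect only spread among these arrays. Named list genes were the calls with the lowest adjusted p, up to 4 per direction; like genes were the 3 with the highest r. Members and lists were chosen with earlier results of these data known. Alternatives left out each array, changed the arrays, probe sets, normalization or variance model, added a replicate block or muscle covariate, or moved the array with the conflicting label. Figures were drawn with matplotlib 3.10.9 in Python 3.11.15.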

Additional observations from a re-analysis of the deposited data

Results flagged for a closer look

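Both results below were taken up because the cold response differed between genotypes by the interaction test. Atf5 read 6.89, 7.10 and 6.93 in controls kept at room temperature and 8.18, 8.27 and 8.11 at 4 °C, and 8.52, 8.72 and 8.58 against 8.73, 8.503 and 8.75 in the knockouts. Its response was smaller in the knockouts by 1.16 on the log2 scale (difference -1.16 ± 0.16, adjusted p = 0.00893, limma), and the call held without any 1 of the 12 arrays (adjusted p up to 0.0346). It was lost with the array of conflicting label among the cold controls (-0.83, adjusted p = 0.721). Atf3 read 3.67, 3.30 and 3.14 in controls kept at room temperature and 7.64, 6.92 and 6.75 at 4 °C, and 4.67, 3.91 and 4.51 against 6.26, 5.63 and 5.33 in the knockouts. Its difference of -2.36 ± 0.40 (adjusted p = 0.0314) lost its call in 9 of the 12 fits that omit an array (highest 0.101), over all probe sets (0.119) or with the muscle covariate (0.0624), and was -1.25 (adjusted p = 0.897) with that array moved.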

How the results depend on the processing

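Of the 11 cold calls of the 10 factors, 8 held without any 1 array. The count in the controls (6) was 4 to 7 with an array left out, in the knockouts (5) 4 to 6, and that of the interaction (0) 0 to 1, with 1 (Cebpa) without control replicate 3 at 4 °C. The count between genotypes at 4 °C (0) was 0 to 2, with 2 (Cebpa and Cebpb) without that array, 1 (Irf4) with only the groups compared and 1 (Cebpa) with dim probe sets left out; at room temperature it was 0 throughout. With the array of conflicting label among the 4 °C controls, 0 of the 10 were called in the controls and 2 in the knockouts; the cause was not tested. Same-numbered arrays did not deviate together (mean r = -0.01 over 18 pairs, 2 of them above 0.1, and 5 of 12 arrays closest to their own number), and the replicate block left the counts at 6, 5, 0, 0 and 0. A fit to only the groups compared is the same as the full fit for the interaction, and Zic1 was removed by the filter on dim probe sets (at least 4 in 3 arrays).

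Uncalled values changed sign in the following settings, and the cause was not tested. With an array left out, the room temperature difference of Cebpd ranged from -0.17 to 0.22, of Ebf2 from -0.16 to 0.072 and of Prdm16 from -0.36 to 0.30, that of Zic1 at 4 °C from -0.18 to 0.084, the knockout cold response of Cebpg from -0.11 to 0.064 and of Lhx8 from -0.24 to 0.24, and the interaction of Irf4 from -0.47 to 0.24 and of Prdm16 from -0.57 to 0.094. The Irf4 interaction was 0.0038 centred on array medians, 0.034 with array weights, 0.24 with the muscle covariate and 0.0084 with the conflicting array moved. Cebpd at room temperature was 0.010 with array weights and 0.15 with the muscle covariate, and the knockout cold response of Cebpg -0.064 quantile-normalized again. With the mean of a gene's probe sets, Prdm16 and Ebf2 at room temperature were 0.0072 and 0.0055. With the conflicting array moved, they were 0.30 and 0.072, Cebpa and Ebf2 at 4 °C -0.11 and -0.027, the control cold response of Prdm16 0.18 and the Ebf2 interaction -0.10. Signal over background was not assessed here, and Cebpd, Zic1 and Lhx8 were the dimmest of the 10.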
